A study of Mus musculus with 6 samples.

Results

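Kupffer cell and macrophage genes were compared between livers of Nrf2 knockout and wild-type mice. They were 35 genes listed by symbol, each represented by the probe sets annotated to that symbol and no other gene. All 35 genes had at least 1 such probe set, 56 in all. The array has 45037 probe sets, of which 34945 are annotated to 1 gene and together stand for 18193 named genes. Each of the 6 Affymetrix arrays held liver RNA pooled from 3 mice, with 3 pools of genotype Nrf2 ko and 3 of genotype Nrf2 wt. Both genotypes were 10 weeks old and of strain C57B/SV129, and the labels name no injury, surgery or treatment for either. The labels do not give the allele, the sex or how the pools were made up beyond the number of animals. Whole liver was used, so macrophage transcripts were measured among those of hepatocytes and other cells, and fewer macrophages cannot be told apart from less RNA per macrophage.

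Kupffer cells are the resident macrophages of the liver. They sit in the sinusoids, clear bacteria, immune complexes and dead red cells from portal blood, and signal to hepatocytes with cytokines. Their development depends on the growth factor receptor CSF1R and the transcription factor PU.1, encoded by Spi1. Nfe2l2 encodes Nrf2, which switches on oxidative stress genes through antioxidant response elements in their promoters, and it is known to restrain inflammatory gene expression in myeloid cells.

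At the targeted gene, Nfe2l2, the brightest probe set was 49.8-fold lower in the knockout (limma adjusted p = 2.22e-06), as the labels say, and a dim second probe set overlapped. The 2% trimmed mean intensity was between 92.1 and 119.7 in the knockout pools and between 92.0 and 131.1 in the wild-type pools, and 2 of the 3 wild-type arrays were brighter than any knockout array. Deposited intensities are therefore quoted as they stand, while differences are given on a log2 scale after the arrays were brought to 1 distribution. The hepatocyte list (Alb and other markers) had all 7 of its genes with a probe set above the brightness filter, and its median log2 difference was 0.06 (-0.02 with no normalization). Lymphocyte and dendritic cell lists had 3 of 11 and 3 of 6 genes above the filter.

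No macrophage gene changed between the genotypes by the test over all probe sets. Of the 35 genes, 34 had a probe set bright enough to be tested and 0 passed an adjusted p of 0.05, where 0.144% of all 11102 tested genes passed, so a count of 0 does not set these genes apart. Itgam, the integrin chain of complement receptor 3, was below the filter, with intensities from 9.55 to 18.9 in the knockout and from 5.17 to 18.0 in the wild type. The lowest adjusted p of a gene's brightest probe set was 0.402, for Mpeg1. The differences were small and mostly positive. The median log2 difference, knockout minus wild type, was 0.18 for the 34 genes and 0.01 for all genes, and 26 of 34 genes (76.5%) were above 0 against 51.4% of all genes. This split depended on scaling, since median centring left 24 of 34 above 0 and no normalization left 18, where the median of all genes was itself at -0.14. The 8 genes that turned negative there were Vsig4, Timd4, Cd163, Mrc1, Laptm5, Tlr2, Fcgr1 and Lgals3. Set against the all-gene median of each scaling, 25 of 34 genes lay above it with the main normalization, with median centring, with trimmed mean scaling and with no normalization. The median over the 34 genes was 0.06 without knockout pool 1 and 0.29 without knockout pool 3.

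Intervals show how large a difference these pools could have hidden. The standard error of a gene's difference ranged from 0.10 to 0.37 log2, with a median of 0.17 against 0.16 for all genes. The 95% interval lay within a 2-fold change in either direction for 31 of the 34 genes and within a 1.5-fold change for 16. At an unadjusted p under 0.05 there were 5 genes, all higher in the knockout (Mpeg1, Il1rn, Lyz2, C1qb and Ctss), which is 14.7% of the 34 where 4.07% of all genes were higher at that level and 8.22% passed it in either direction. The 3 knockout pools lay wholly above the 3 wild-type pools for 3 genes (Mpeg1, Il1rn and Lyz2), 8.82% of the 34 where the background is 7.38%. No gene lay wholly below, where 727 of all 11102 genes did. In either direction 13.9% of all genes were separate. The share of genes wholly above was thus near the background.

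**Figure D1:**
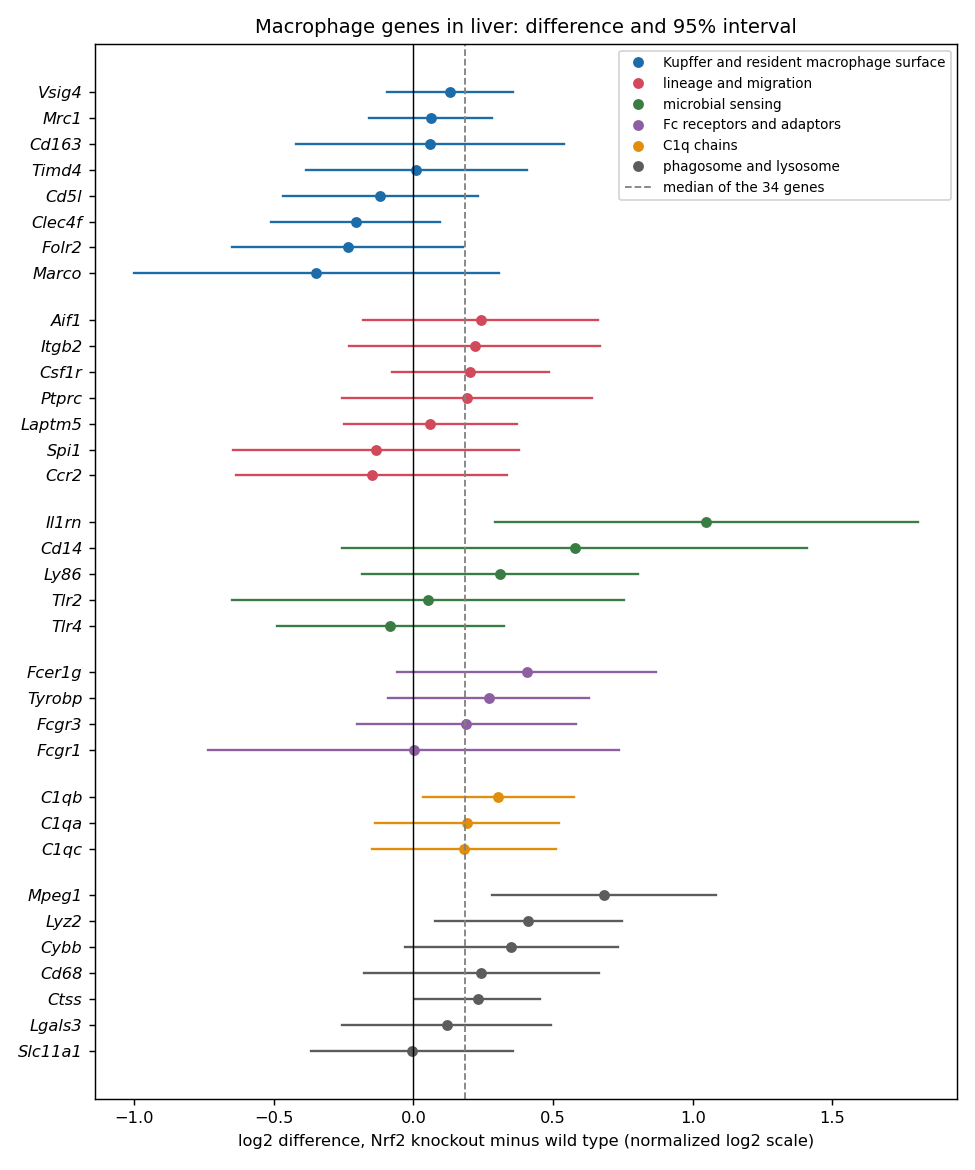
Log2 difference (knockout minus wild type, normalized scale) of the brightest tested probe set of each of 34 macrophage genes, grouped by role, with its 95% interval from the limma fit; the dashed line is their median, 0.18. Most points lie right of 0, the resident markers straddle it, and the lower bound is above 0 for 5 genes before any adjustment.

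Genes that mark resident liver macrophages, surface receptors apart from the secreted Cd5l product, were as often below 0 as above it. Of 8 genes, 4 had a positive and 4 a negative log2 difference, the median was -0.05, and every 95% interval lay within a 2-fold change. The sign of this median turned with array weights (0.03), with a filter at the 70th percentile (0.01), with probe sets averaged per gene (0.04) and without wild-type pool 3 (0.01), and it was -0.22 without knockout pool 1. Clec4f, a C-type lectin found on Kupffer cells and almost no other mouse cell, had intensities of 806, 697 and 769 in the knockout and 1059, 734 and 1198 in the wild type. After normalization knockout pool 1 alone reached the wild-type range, so the groups overlapped, with a log2 difference of -0.21 ± 0.13 (SE, n = 3 per genotype) and an adjusted p of 0.76. The secreted scavenger protein gene Cd5l, which keeps macrophages alive, was at -0.12 ± 0.15, with 886, 758 and 782 against 991, 777 and 1226. Vsig4, the complement receptor that captures opsonised bacteria from blood, had 1048, 1013 and 1179 against 1153, 865 and 1313, and its difference of 0.13 ± 0.10 was -0.02 with no normalization. For this receptor the interval ran from -0.10 to 0.36, so a change of 1.5-fold lay outside it.

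Motifs known for PU.1 and for Nrf2 were looked for in the 250 bases before each start site, because the first is the lineage factor of these cells and the second the deleted one. Promoter windows came from RefSeq on GRCm38.p6 and matched 28 of the 35 genes with 33 windows; Spi1, Cd14, C1qa, Itgb2, Tlr4, Tyrobp and Csf1r were not matched. The antioxidant response element core TGACNNNGC, on either strand, was in 4 of the 33 windows (C1qb, Clec4f, Folr2 and Ptprc) and in 10.2% of all 32851 windows. The PU.1-type motif GAGGAAG, on either strand, was in 9 windows of 8 genes (C1qc, Cd5l, Fcgr1, Fcgr3, Itgam, Laptm5, Marco and Mrc1) and in 10.6% of all windows. Both are matches of letters only, and binding was not measured. The window of Clec4f, the most specific Kupffer cell gene of the list, is shown (chr6:83656117-83656366, minus strand, 5′ to 3′, match in capitals) and holds the response element core on the opposite strand, between 61 and 53 bases before the start.
Clec4f: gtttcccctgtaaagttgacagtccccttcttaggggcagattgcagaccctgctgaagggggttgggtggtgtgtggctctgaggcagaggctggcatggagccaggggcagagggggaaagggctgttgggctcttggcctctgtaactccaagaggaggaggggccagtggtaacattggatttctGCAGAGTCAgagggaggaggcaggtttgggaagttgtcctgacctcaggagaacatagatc

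Other resident markers also overlapped between the genotypes. The phosphatidylserine receptor gene Timd4, a marker of macrophages of embryonic origin, was at 0.01 ± 0.17 log2, with 167, 136 and 134 in the knockout and 169.5, 133 and 182 in the wild type. Folr2, a folate receptor of resident macrophages, was at -0.24 ± 0.18, with 152, 114 and 153 against 168, 162 and 223, and its adjusted p was 0.806. Its normalized values overlapped because wild-type pool 1 fell among the knockout pools. The haemoglobin-haptoglobin receptor gene Cd163 was at 0.06 ± 0.21 and the mannose receptor gene Mrc1, which sinusoidal endothelial cells also express, at 0.06 ± 0.10. Marco, a scavenger receptor for bacteria, gave probe sets of opposite sign, -0.35 ± 0.29 at the brighter one (intensities from 39.5 to 108) and 0.77 ± 0.50 at the dimmer one (from 5.57 to 46.6). The dimmer one reached the filter through the knockout pools, with a mean log2 of 5.13 there and 4.36 in the wild type. Neither Marco probe set passed, so no direction can be given for this gene.

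Genes of the myeloid lineage and of leukocyte adhesion leaned upward without passing. Of 7 tested genes, 5 were above 0, with a median log2 difference of 0.19 (0.14 with median centring, 0.03 with no normalization). Leaving out a knockout pool moved it to 0.08 (pool 1), 0.06 (pool 2) or 0.31 (pool 3). Csf1r, the receptor for the growth factors CSF1 and IL-34, had intensities of 1943, 1777 and 1882 in the knockout and 1944, 1341 and 2194 in the wild type. Its groups overlapped after normalization, at 0.20 ± 0.12 (adjusted p = 0.745), and the other 2 probe sets were at 0.16 ± 0.16 and 0.30 ± 0.13. Spi1, encoding PU.1, was at -0.13 ± 0.23, and its intensities were low, from 29.4 to 72.6 over the 6 arrays. The leukocyte phosphatase gene Ptprc (CD45) was at 0.19 ± 0.20 and the integrin chain gene Itgb2 (CD18) at 0.22 ± 0.20. Aif1, the actin-bundling protein also called IBA1, was at 0.24 ± 0.19 and the lysosomal membrane gene Laptm5 at 0.06 ± 0.14. Ccr2, the chemokine receptor that brings monocytes out of the blood, was at -0.15 ± 0.21 at the single tested probe set of its 4, with intensities from 23.9 to 33.2.

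The largest differences among the receptors and signals of microbial sensing came from Il1rn and Cd14, and they differed in kind. Il1rn encodes the interleukin-1 receptor antagonist, made by macrophages and, in inflammation, by hepatocytes. At its brightest probe set the knockout pools read 36.5, 55.4 and 44.5 and the wild-type pools 11.5, 20.3 and 35.7. A second tested probe set had 29.9, 55.0 and 45.6 against 22.2, 17.7 and 24.6. All 3 knockout pools were above all 3 wild-type pools at both, with log2 differences of 1.05 ± 0.33 (2.07-fold, adjusted p = 0.533) and 0.95 ± 0.22 (1.93-fold, adjusted p = 0.302). Over 16 other settings the brightest one ran from 0.66 (without wild-type pool 1) to 1.21. These probe sets are dim, and fold changes of dim probe sets are understated on this scale. The remaining Il1rn probe set, under the filter, was at 0.78 ± 0.47 and overlapped.

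Cd14, the co-receptor that hands lipopolysaccharide to TLR4, owed its difference to a single pool. Its intensities were 73.3, 77.8 and 264 in the knockout and 77.5, 77.7 and 93.9 in the wild type. Knockout pool 3 stood alone and the other 5 pools lay close together. The log2 difference was 0.58 ± 0.37 with all pools (adjusted p = 0.757) and 0.09 without knockout pool 3. In that pool most other macrophage genes were low, so Cd14 did not move with them. Ly86, which encodes the MD-1 partner of the receptor RP105, was at 0.31 ± 0.22, and Tlr2 at 0.05 ± 0.31. Tlr4 was at -0.08 ± 0.18 at its brightest probe set and 0.11 ± 0.25 at the other tested one.

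**Figure D2:**
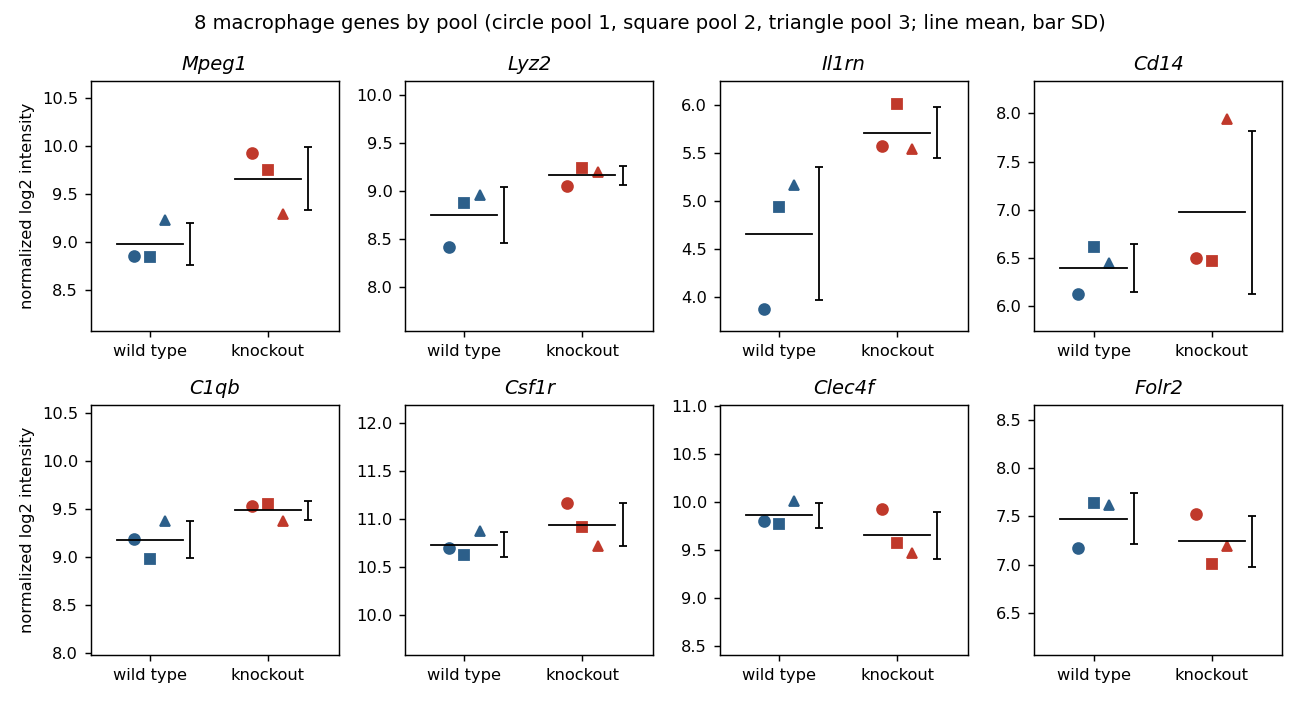
Normalized log2 intensity of 8 macrophage genes at their brightest probe set in each of the 3 wild-type and 3 knockout pools, with the mean (line) and SD (bar); the vertical axes span the same number of log2 units but start at different values. Mpeg1, Lyz2 and Il1rn separate the genotypes, Cd14 is high in knockout pool 3 alone (7.95 against 6.13 to 6.61 elsewhere), and the others overlap.

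Fc receptor genes and their signalling adaptors were at or above 0 for all 4 members, with a median log2 difference of 0.23 (0.18 with median centring, 0.08 with no normalization, 0.15 without knockout pool 1, 0.40 without knockout pool 3). Fcer1g, the common gamma chain that activating Fc receptors need, had 194, 168 and 173 in the knockout and 133, 155 and 157 in the wild type. Those deposited values separated the genotypes, but after normalization wild-type pool 2 fell among the knockout pools, and the difference was 0.40 ± 0.20 (adjusted p = 0.699). Tyrobp, the DAP12 adaptor of myeloid receptors, was at 0.27 ± 0.16, with 218, 283 and 223 against 247, 167 and 267. Fcgr3, a low-affinity receptor for IgG, was at 0.19 ± 0.17. Fcgr1, the high-affinity one, was at 0.00 ± 0.32, and its second probe set at -0.18 ± 0.24.

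The C1q chains, which macrophages make and which together form the recognition part of the first complement component, showed like differences at all 3 genes. C1qa was at 0.19 ± 0.14 log2, C1qb at 0.30 ± 0.12 and C1qc at 0.18 ± 0.14, with adjusted p-values of 0.803, 0.61 and 0.814. C1qa had intensities of 597, 559.8 and 558 in the knockout and 571, 445 and 702 in the wild type. C1qb had 607, 691 and 726 against 695, 419.8 and 769.7, and C1qc had 539, 552 and 527 against 566, 388 and 689. Wild-type pool 2 was the lowest array for every chain before normalization. After it, the knockout pools were higher on average and the groups overlapped for each chain. Their median, 0.19, was 0.09 without knockout pool 1 and 0.32 without knockout pool 3. The 3 differences were 0.02 (C1qa), 0.15 (C1qb) and 0.02 (C1qc) with no normalization, and the other 2 C1qb probe sets were at 0.19 ± 0.15 and 0.08 ± 0.16. Of the C1 partners made in hepatocytes, the C1 inhibitor gene Serping1 was at 0.18 ± 0.07, C1ra at -0.12 ± 0.10, C1s1 at -0.08 ± 0.09 and C2 at -0.13 ± 0.18, and 0 of these 4 passed (median -0.10).

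The windows before C1qb and C1qc, neighbours on chromosome 4, are shown because they hold different motifs. Whether these motifs bear on the differences of the chains was not tested. C1qb (chr4:136886201-136886450) has the response element core and C1qc (chr4:136892915-136893164) the PU.1-type motif, each on the strand opposite to the gene, in capitals; both are printed 5′ to 3′ from the minus strand.
C1qb: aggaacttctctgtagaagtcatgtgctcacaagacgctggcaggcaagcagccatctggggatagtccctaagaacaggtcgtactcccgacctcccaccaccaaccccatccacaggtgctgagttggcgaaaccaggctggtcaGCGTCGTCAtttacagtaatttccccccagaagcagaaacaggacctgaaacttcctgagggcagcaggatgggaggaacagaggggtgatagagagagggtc
C1qc: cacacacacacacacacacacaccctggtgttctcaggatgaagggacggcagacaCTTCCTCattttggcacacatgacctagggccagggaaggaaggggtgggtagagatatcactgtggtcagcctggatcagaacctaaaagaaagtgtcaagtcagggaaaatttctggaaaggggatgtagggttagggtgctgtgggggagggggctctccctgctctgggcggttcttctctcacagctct

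Genes of the phagosome and lysosome were above 0 for 6 of 7, although none passed. Mpeg1, Lyz2 and Ctss were higher at an unadjusted limma p under 0.05. These 3 are 42.9% of the 7, where 4.07% of all genes were higher at that level. The 7 genes were measured in the same 6 pools, so they are not separate results. The share was 38.5% for the list of lysosomal enzyme and membrane genes, which all liver cells express. The median log2 difference of the 7 genes was 0.24 (0.20 with median centring, 0.10 with no normalization, 0.39 without knockout pool 3). Mpeg1 encodes perforin-2, a pore-forming protein that macrophages use against engulfed bacteria. Its intensities were 811, 791 and 682 in the knockout and 557, 381 and 699.5 in the wild type. Knockout pools 1 and 2 were well above the wild type, while knockout pool 3 was barely above wild-type pool 3 after normalization (9.29 against 9.23). The difference was 0.68 ± 0.18 (SE, n = 3 per genotype), 1.61-fold, with a 95% interval from 0.28 to 1.08 and an adjusted p of 0.402. Over 17 other settings it ran from 0.52 to 0.87, and the lowest adjusted p, 0.0944, came without knockout pool 3.

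The window before Mpeg1, the gene with the lowest p at a brightest probe set, holds neither motif and is also shown (chr19:12460520-12460769, plus strand, 5′ to 3′).
Mpeg1: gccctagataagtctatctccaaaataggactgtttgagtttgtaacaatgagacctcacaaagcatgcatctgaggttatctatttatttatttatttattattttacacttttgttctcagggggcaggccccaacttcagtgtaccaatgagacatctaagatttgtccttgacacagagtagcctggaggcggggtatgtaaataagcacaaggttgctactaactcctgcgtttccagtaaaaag

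Lyz2, the lysozyme of macrophages and neutrophils, had 439, 549 and 639.7 in the knockout and 408, 389 and 575 in the wild type. After normalization the knockout pools were all above the wild-type pools, at 0.41 ± 0.15 (1.33-fold, adjusted p = 0.594). Its near-identical paralog Lyz1 may share signal at this probe set. Ctss, a lysosomal protease of antigen-presenting cells, was at 0.23 ± 0.10 (adjusted p = 0.64) with overlapping groups. Cybb, the catalytic chain of the phagocyte NADPH oxidase, was at 0.35 ± 0.17 at its brightest probe set, with 228, 236 and 214 against 203, 144 and 264, and at 0.08 ± 0.13 and 0.24 ± 0.16 at the others. Cd68, a glycoprotein of late endosomes, was at 0.24 ± 0.19. Lgals3 (galectin-3) was at 0.12 ± 0.16, and the phagosomal metal transporter gene Slc11a1 at -0.01 ± 0.16. Of the oxidase partners, 4 of 5 tested genes were above 0 and none passed (median 0.11, or -0.02 with no normalization), with Cyba, the chain paired with CYBB in the membrane, at 0.28 ± 0.18 and the GTPase genes Rac1 and Rac2 at 0.11 ± 0.08 and 0.15 ± 0.18. The cytosolic subunit gene Ncf1 was at -0.05 ± 0.16.

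Knockout pools 1 and 3 lay further apart than the means of the genotypes. Knockout pool 1 was the highest of all 6 arrays for 16 of 34 genes and knockout pool 2 for 10. Over all 11102 tested genes they were the highest for 1672 and 2613. Knockout pool 3 was the lowest of the 6 for 10 genes, wild-type pool 1 for 9 and wild-type pool 2 for 11. The like counts over all 11102 genes were 2097, 1411 and 1726. For 28 of 34 genes the lowest of the knockout pools was pool 3, against 39.2% of all genes, and 32 of 34 were higher in knockout pool 1 than in knockout pool 3, against 54.1% of all genes. As a median over the 34 genes, the log2 value relative to the mean of the 6 arrays was 0.24, 0.15 and -0.16 for the knockout and -0.15, -0.11 and 0.04 for the wild type. Knockout pool 3 thus lay with the wild-type pools. Over all genes the same median stayed between -0.02 and 0.02 in every pool. Quantile normalization holds it near 0, so it is no separate check. Among the wild-type pools, pool 3 was the highest for 24 of 34 genes, against 31.9% of all genes. Knockout pool 3 was above the mean of the wild-type pools for only 10 of 34 genes, against 47.8% of all genes. Since macrophage genes of 1 liver sample share that sample, these counts describe 6 pools, not 34 separate results.

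**Figure D3:**
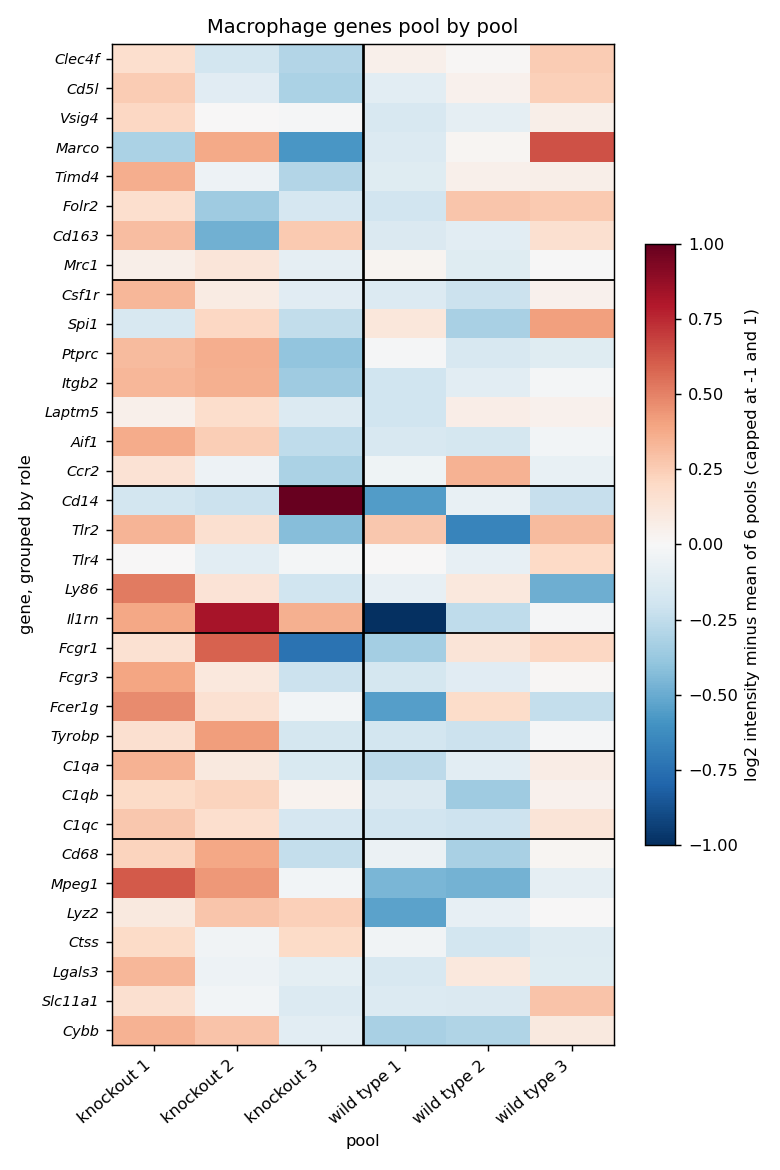
Normalized log2 intensity of 34 macrophage genes in each pool minus the gene's mean over the 6 pools, capped at -1 and 1, with genes grouped by role. Columns of knockout pools 1 and 2 are mostly red, and knockout pool 3 is mostly blue with Cd14, Il1rn, Cd163, Lyz2 and Ctss among its red cells. Resident markers at the top show no common split between genotypes.

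Growth and identity factors of Kupffer cells were tested for 13 of 14 genes with a probe set, and 0 passed. At an unadjusted p under 0.05 there was 1 higher and 1 lower of these 13, so 7.69% were higher where 4.07% of all genes were. The median log2 difference was 0.15 (0.00 with no normalization, 0.08 without knockout pool 1, 0.28 without knockout pool 3). Cebpb, a transcription factor of both macrophages and hepatocytes, was at -1.11 ± 0.33 (adjusted p = 0.489), with 512, 339.8 and 1089 in the knockout and 1332, 961 and 2130 in the wild type. After normalization the genotypes were separate for this gene, with every knockout pool lower. Irf8, a transcription factor of the monocyte lineage, was at 0.40 ± 0.14, and the genotypes were separate with the knockout higher (adjusted p = 0.567). The growth factor gene Csf1 was at 0.37 ± 0.18 and the C-type lectin receptor gene Clec1b at 0.28 ± 0.16.

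Cytokine and chemokine genes were mostly dim, with 12 of 19 tested, 9 of them above 0 with a median log2 difference of 0.09 (-0.05 with no normalization, 0.01 without wild-type pool 2 or without knockout pool 3), and 0 passed. Il1b, whose product the Il1rn protein opposes at the interleukin-1 receptor, had 136, 128 and 199 in the knockout and 98.8, 73.6 and 109 in the wild type. Every knockout pool was above every wild-type pool, at 0.81 ± 0.14 log2 with an adjusted p of 0.124, the lowest of any gene in the lists examined here. The chemokine genes Ccl9, Ccl24 and Ccl4 were at 0.20 ± 0.11, -0.34 ± 0.19 and 0.33 ± 0.25. Toll-like receptor partners had 4 of 11 genes above 0, 0 at an unadjusted p under 0.05 and a median of -0.02 (0.08 with a filter at the 70th percentile, -0.17 with no normalization, -0.27 without knockout pool 1, -0.14 without wild-type pool 3), with the adaptor genes Tirap (-0.28 ± 0.21) and Ticam1 (-0.28 ± 0.23). Cd180, which encodes the RP105 partner of the Ly86 product, was at -0.33 ± 0.28, and the shared adaptor gene Myd88 at 0.13 ± 0.13. Other phagocytic receptors had 11 of 15 above 0 and a median of 0.07 (-0.08 with no normalization, 0.19 without knockout pool 3), with the integrin gene Itgal at 0.34 ± 0.12, the inhibitory Fc receptor gene Fcgr2b at 0.21 ± 0.15, Sirpa at 0.27 ± 0.19 and Axl at 0.22 ± 0.19. Lysosomal enzyme and membrane genes, which all liver cells express, had 10 of 13 above 0 and a median of 0.16 (0.04 with no normalization, 0.22 without knockout pool 3, 0.10 without knockout pool 2). Of these 13, 5 were higher and 1 lower at an unadjusted p under 0.05, which is 38.5% higher where 4.07% of all genes were. There the cholesterol exporter gene Npc1 was at 0.33 ± 0.10, progranulin (Grn) at 0.37 ± 0.13, the cathepsin gene Ctsl at 0.21 ± 0.08 and the hexosaminidase gene Hexa at -0.41 ± 0.15, none of which passed.

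Neutrophil markers moved with the macrophage genes across pools, and stellate cell markers did so only in part. Of the neutrophil list, 3 of 7 genes with a probe set were above the filter, and Camp, Elane, Mpo and Cxcr2 were below it. Their median log2 value relative to the mean of the arrays was 0.37, 0.57 and -0.54 for the knockout and -0.57, -0.16 and 0.07 for the wild type, so knockout pools 1 and 2 were high here too. Their summed intensity ran from 84 to 184 in the knockout and from 92 to 147 in the wild type. Among them Ngp, a granule protein gene, was at 0.61 ± 0.37 and S100a8, an alarmin gene of neutrophils and monocytes, at 0.51 ± 0.35. Its partner gene S100a9 was at 0.07 ± 0.29 and was highest in wild-type pool 3. Neutrophils also express Lyz2, Ptprc, Itgb2, Fcer1g, Tyrobp and Il1rn, and their part in the values of these genes was not tested. The red blood cell marker Alas2, a haem synthesis gene and the only tested gene of 4 on its list with a probe set, set pool 3 of both genotypes apart. Its intensities were 693, 907 and 164 in the knockout and 1415, 956 and 243 in the wild type. Knockout pool 3 and wild-type pool 3 were both low for it, and its part in the pool differences was not tested. Stellate cell genes were above 0 for all 8 tested, with a median of 0.20 (0.04 with no normalization). The largest value, Des at 1.00 ± 0.31 (adjusted p = 0.514), came from a dim probe set. It read 22.14, 29.75 and 28.75 in the knockout and 18.0, 12.95 and 6.02 in the wild type. Its wild-type mean log2, 4.05, was below that of an untested Ccr2 probe set (4.40), so Des passed the filter through the knockout pools. The pool medians of the stellate list were 0.18, 0.33 and 0.14 in the knockout and -0.03, -0.15 and -0.08 in the wild type, and knockout pool 3 was not low. Sinusoidal endothelial genes, neighbours of Kupffer cells in the sinusoid, had 5 of 9 above 0 and a median of 0.08 (-0.08 with no normalization). The 2 with the smallest p were Pecam1 at 0.27 ± 0.13 and Kdr at 0.24 ± 0.12, and neither passed. The 4 below 0 were Cdh5 (-0.15 ± 0.17), Tek (-0.05 ± 0.12), Stab2 (-0.03 ± 0.10) and Clec4g (-0.01 ± 0.08). The actin 3′ to 5′ control ratio, which reflects how intact the RNA is, was 1.94, 1.96 and 2.01 for the knockout and 1.77, 1.94 and 1.88 for the wild type, with no knockout value below a wild-type one. The Gapdh ratio was 0.784, 0.725 and 0.793 for the knockout and 0.756, 0.767 and 0.756 for the wild type and overlapped. The part of RNA quality in these values was not tested.

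**Figure D4:**
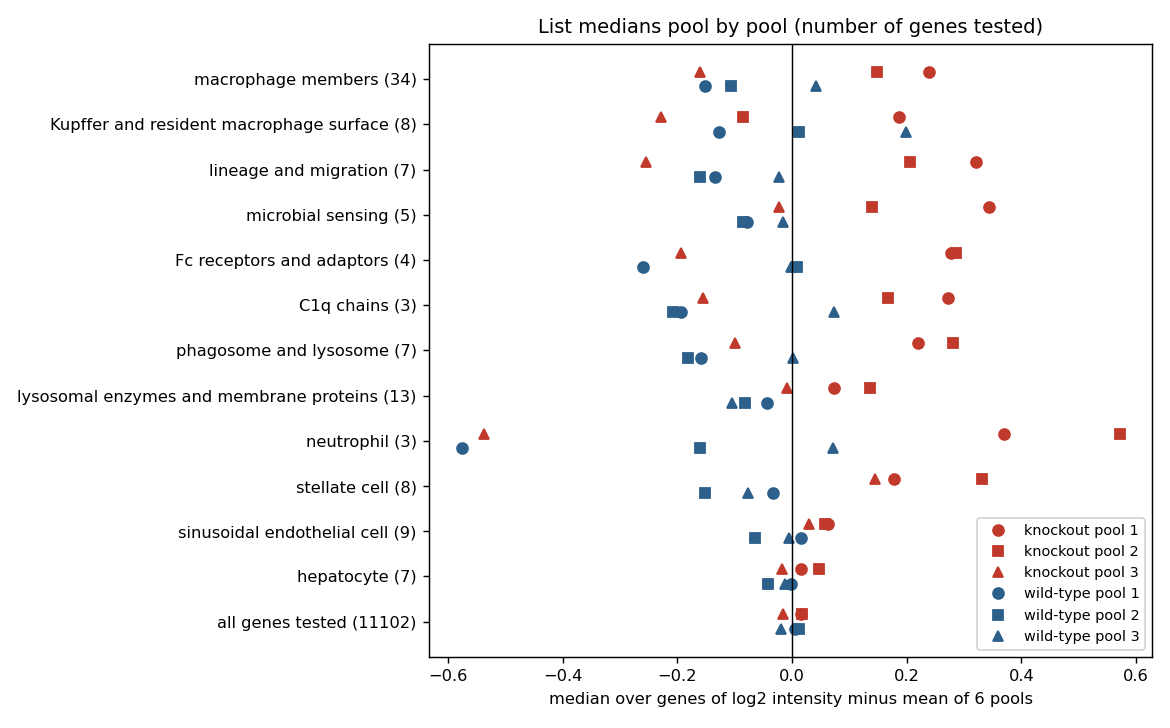
For each gene list, the median over its tested genes (number in parentheses) of the normalized log2 intensity minus the gene's mean over the 6 pools, with 1 symbol per pool. Knockout pools 1 and 2 lie right of the wild-type pools for most macrophage groups and for neutrophil genes, and knockout pool 3 does not. Hepatocyte genes and all genes stay near 0. Quantile normalization holds all genes there, and hepatocyte genes are near the top of the intensity range, where it leaves little spread.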

How the data were processed

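Liver RNA of 6 pools was measured on 1-colour Affymetrix arrays. The deposited values are linear probe set intensities, made with GCOS 1.4 per the submitters' processing notes, with the signal algorithm and the scaling not given in the sources used here. Symbols came from the platform annotation, updated through the Entrez identifier. Here 5.26, the 25th percentile of all values, was added, log2 was taken and arrays were quantile normalized. Of 45037 non-control probe sets, the 22519 with a mean at or above the median were tested with limma 3.58.1 in R 4.3.3 (lmFit, eBayes with intensity trend), knockout against wild type, with Benjamini-Hochberg adjustment over all of them, after a check on simulated data. A gene took its brightest tested probe set. Genes named are every member, Nfe2l2, and up to 4 tested genes per other list with the smallest p. Alb, the neutrophil genes below the filter and the sinusoidal endothelial genes below 0 were named besides, as checks of cell type. The members, lists and tests were chosen with earlier results of these data known. Detection calls were not used here, and the number of arrays limits precision. The labels do not say whether pools shared animals. The p-values treat the 6 pools as independent, with each variance moderated by those of all tested probe sets. Alternatives covered normalization, pseudocount, filter, trend, array weights, a replicate block, probe set averaging and each pool left out.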

Additional observations from a re-analysis of the deposited data

How the results depend on the processing

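No macrophage gene passed under any of the 17 other settings of normalization, pseudocount, filter, trend, weights, replicate block, probe set averaging or pools, and the lowest adjusted p was 0.0944, for Mpeg1. The stricter filter, at the 70th percentile, tested only 27 of them. The sign of the difference was that of the main setting in every one of them for 21 of 34 genes. The median over the macrophage genes was 0.02 log2 with no normalization, which, like trimmed mean scaling, was added after seeing the data. With no normalization 143 probe sets and 80 genes passed over the whole array, against 32 and 16 in the main setting. Fewer probe sets passed when none was filtered (20), under the stricter filter (19) and when the trend was dropped (18 probe sets, 9 genes). Leaving out each pool in turn gave 18 to 32 probe sets. With the replicate number as a block, 32 probe sets and 20 genes passed. Deviations of same-numbered pools correlated at 0.13, 0.05 and 0.25. Pools 1 and 3 of each genotype correlated best with the same-numbered pool of the other genotype. Pool 2 of each correlated best with pool 1 of the other. The main fit did not pair the genotypes, and some structure shared by replicate number may remain in it. Dim probe sets such as those of Il1rn, Marco, Ccr2 and Tlr4 have no stated limit of detection.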
